A study of Rattus norvegicus with 3 samples.

Results

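The genes described here drive a cell through DNA replication and division. They were 49 genes chosen by symbol for their known roles, 25 that act in S phase (loading of the replicative helicase, the replication fork, nucleotide supply and cyclin E) and 24 that act in mitosis (cyclins A and B, mitotic kinases, the spindle and chromosome condensation). Of these, 45 had at least 1 probe set annotated with that symbol alone, 22 for S phase and 23 for mitosis, out of 14218 genes in all. They were covered by 61 of the 31099 probe sets of the array. Expression of Cdc6, Gins2 and Tpx2 was not analysed here, and neither was that of Rrm2, whose 2 probe sets are annotated to Rrm2l1 as well. Gins2 is counted only among the promoter windows.

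The samples were cultures of fetal cardiomyocytes of the Wistar rat, an outbred laboratory strain, freed with digestive enzymes and kept for 48 hours after plating. For the next 24 hours 1 culture received fresh culture medium (the control), 1 received medium conditioned by skeletal myoblasts and 1 received medium conditioned by cardiac fibroblasts. Each medium is represented by 1 Affymetrix 3' array, and there is no replicate spread, no test and no p-value, and every statement below describes these 3 arrays. The study concerned paracrine protection of cardiomyocytes from oxidative stress through c-Met and the epidermal growth factor receptor.

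Cells commit to division when cyclin D and cyclin E kinases inactivate the retinoblastoma protein, which frees E2F transcription factors to switch on the replication genes. Mitotic genes follow later, through B-MYB and FOXM1 bound with the MuvB complex, which represses the same genes in resting cells as part of the DREAM complex. Fetal cardiomyocytes still divide and leave the cell cycle around birth, whereas the fibroblasts, endothelial cells and macrophages that can accompany them in culture keep the capacity to divide. An array of a whole culture cannot tell fewer dividing cells from less RNA per dividing cell.

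Values are log2 levels with each probe set's median over the 3 arrays subtracted, so 0 is the array in the middle and a difference of 1 between arrays is 2-fold. The absolute brightness was removed by this centring, so whether a gene was detected, and whether the defining cardiomyocyte markers were abundant, could not be judged, and levels of different genes cannot be set against each other. A cell left blank in the deposited table was read as 0. Of the 61 probe sets of these genes, 39 had values on 2 arrays, 14 on 1 and 8 on none, so that Prim1 and Bub1b stood at 0 on all arrays. Control transcripts meant to be added in equal amounts, in 42 probe sets, differed between arrays by up to 0.66 (myoblast against fresh medium), 0.68 (fibroblast against fresh medium) and 1.02 (between the conditioned media). Whether the added amounts were equal was not tested.

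The S phase and mitotic genes differed in the letters of their promoters. RefSeq promoter windows of assembly GRCr8, from 250 bases before to 50 bases after each start, were found for 40 of the 49 genes. They were searched on both strands for the E2F site (TTTCCCGC, TTTGGCGC, TTTCGCGC or TTTGCCGC), the CCAAT box (CCAAT), where the factor NF-Y binds, and the cell cycle genes homology region, CHR (TTTGAA or TTTAAA), where the MuvB complex binds. An E2F match was present in 13 of 21 S phase windows and in 1 of 19 mitotic windows, that of Cdk1, against 2.14% of all 33469 windows of the same length. A CHR match was present in 18 of 19 mitotic windows, all but that of Cdca3, and in 5 of 21 S phase windows, against 28.2% of all windows. CCAAT was present in 16 of 19 mitotic and 14 of 21 S phase windows, against 37.5% of all. Among the 13243 windows of genes on the array the shares were 3.51% for E2F, 20.5% for CHR and 36.8% for CCAAT. The S phase share with a CHR match, 23.8%, thus lay below that of all windows and above that of genes on the array. A CHR match together with CCAAT occurred in 15 of 19 mitotic windows and 2 of 21 S phase windows, against 11.3% of all. The letters of no motif contain those of another, TTTAAA reads the same on both strands, and a match describes letters in a window, not a bound site. Other replication genes, from a list of 47, had an E2F match in 17 of 43 windows and a CHR match in 9, and other mitotic genes, from a list of 63, had them in 2 and 40 of 57.

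**Figure D1:**
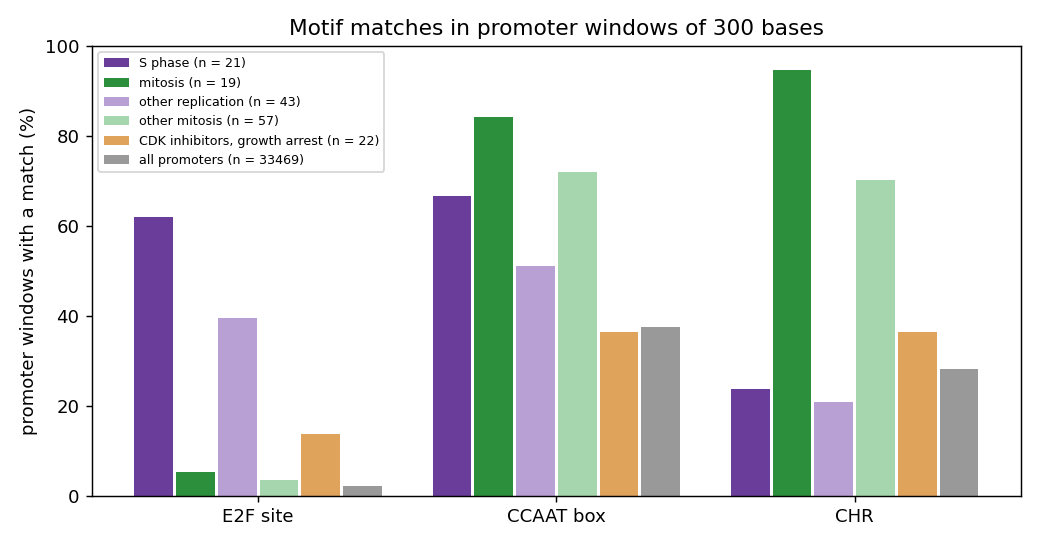
Bars give the percentage of promoter windows of 300 bases with at least 1 match to the motif named below them, on either strand, for 6 groups of genes, with the number of windows in the legend. E2F matches were present in 61.9% of S phase windows and 5.26% of mitotic windows, and CHR matches in 23.8% and 94.7%.

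The 4 genes that differed by at least 1.5-fold between any pair of arrays, Mcm6 and Pola1 for S phase and Ccnb1 and Cenpf for mitosis, are shown with the 200 bases that precede the start, 5′ to 3′ along the gene. Capitals mark matches to the E2F site, the CCAAT box or the CHR.
Mcm6, chr13:42404353-42404552, minus strand: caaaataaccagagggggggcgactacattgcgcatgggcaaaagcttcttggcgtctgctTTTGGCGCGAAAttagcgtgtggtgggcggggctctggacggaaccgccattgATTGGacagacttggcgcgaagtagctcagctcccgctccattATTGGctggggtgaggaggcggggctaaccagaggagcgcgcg
Pola1, chrX:62342356-62342555, minus strand: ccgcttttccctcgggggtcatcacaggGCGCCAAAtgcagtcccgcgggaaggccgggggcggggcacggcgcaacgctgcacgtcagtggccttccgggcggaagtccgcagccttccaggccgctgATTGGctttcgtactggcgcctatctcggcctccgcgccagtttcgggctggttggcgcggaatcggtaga
Ccnb1, chr2:33655226-33655425, minus strand: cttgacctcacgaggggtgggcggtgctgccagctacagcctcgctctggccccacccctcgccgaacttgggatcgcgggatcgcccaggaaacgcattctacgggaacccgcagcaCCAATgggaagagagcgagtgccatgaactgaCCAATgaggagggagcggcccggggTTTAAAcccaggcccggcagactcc
Cenpf, chr13:103760887-103761086, minus strand: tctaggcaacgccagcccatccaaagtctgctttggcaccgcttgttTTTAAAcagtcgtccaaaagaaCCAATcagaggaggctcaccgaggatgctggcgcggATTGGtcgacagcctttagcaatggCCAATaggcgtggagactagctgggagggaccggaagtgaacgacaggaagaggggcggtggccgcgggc
In Mcm6 a pair of E2F matches overlaps, one on each strand, at 139 and 135 bases before the start, and the CCAAT boxes lie on the opposite strand at 86 and 43 bases before it. Pola1 has 1 E2F match, at 172 bases before the start. Ccnb1 has CCAAT at 82 and 50 bases before the start and the palindromic CHR at 25, while in Cenpf the CHR of this stretch lies at 153 bases before the start, upstream of its 3 CCAAT boxes.

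Under myoblast-conditioned medium the S phase genes were lower than in fresh medium by small amounts, and the mitotic genes were not. Of 22 S phase genes, 18 had a difference below 0, 3 above and 1 at 0. Of all 14218 genes 40.2% were below 0, 39.0% were above and 2953 were at exactly 0. The median log2 difference of the S phase genes was -0.14, where the median of all genes was 0. Of 23 mitotic genes, 14 were above 0 and 6 below, against 39.0% of all genes above 0, with a median of 0.06. No S phase or mitotic gene reached 2-fold in either direction, against 1.35% of all genes 2-fold or more above fresh medium and 0.844% as far below it. All these differences were within the largest difference of the added controls, whose median was itself 0.29 in this comparison. The arrays were also set level on those controls by subtracting each array's median control value. Every gene then shifts by -0.18 in this comparison, less than the 0.29 median of the control differences. Part of that difference between the controls therefore remains. The mitotic median becomes -0.12 and the S phase median -0.32, so the sign of the mitotic median depends on the scaling.

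**Figure D2:**
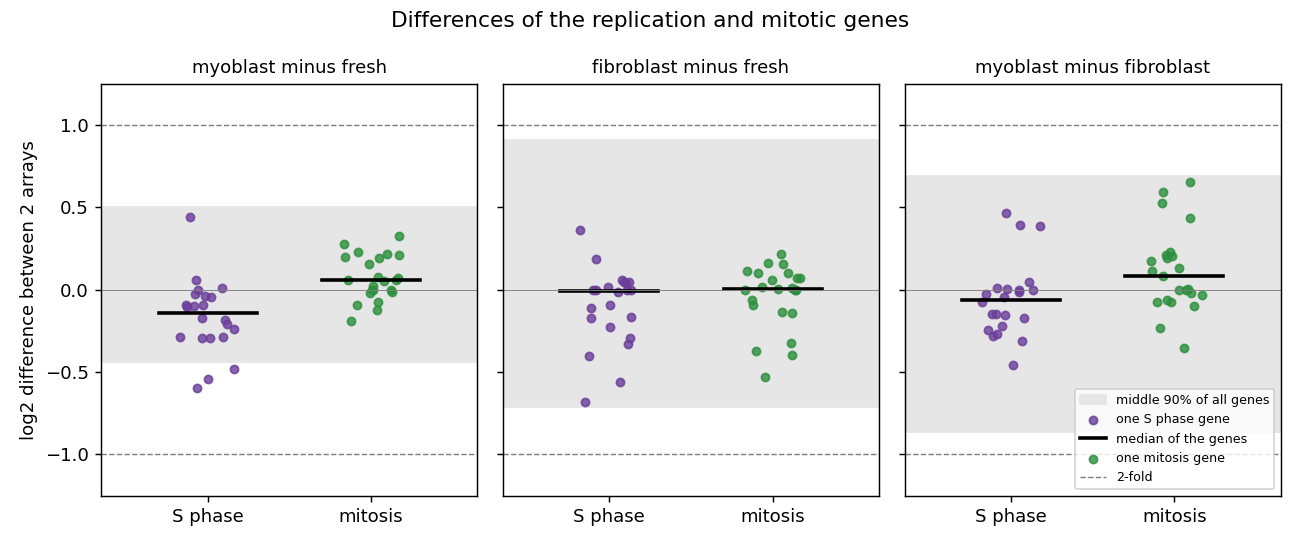
Each point is the log2 difference of 1 gene between a pair of arrays (vertical axis), for S phase and mitotic genes, in 3 comparisons. Black bars are medians, grey bands hold the middle 90% of all 14218 genes and dashed lines mark 2-fold. The S phase median of -0.14 under myoblast medium is the lowest of the 6 medians, and no point reaches a dashed line.

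Among S phase genes, 3 helicase genes had the lowest differences between myoblast and fresh medium. MCM2 to MCM7 form the ring that is loaded on origins and later unwinds the DNA. Mcm6 stood at 0.33 in fresh medium, -0.27 in myoblast medium and 0 in fibroblast medium, a log2 difference of -0.60 (1.51-fold) between myoblast and fresh medium. It was the only gene of the 45 to pass 1.5-fold in that comparison, where 2.86% of all genes were that far below fresh medium and 3.77% that far above it. It drops out, with its single probe set, when probe sets not unique to 1 transcript are left out. With the arrays set level on the added controls Mcm2 (-0.72) and Mcm5 (-0.66) pass 1.5-fold as well. Mcm2 stood at 0.23, -0.31 and 0 on the same arrays, a difference of -0.54. Mcm5 stood at 0.40, -0.07 and 0, a difference of -0.48. Fresh medium was highest and myoblast medium lowest for each of these genes. These 3 were also the only members that, in this comparison, lay outside the middle 90% of all genes, which ran from -0.44 to 0.50 and has 5% of all genes below it by its definition.

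Other licensing genes followed in the same direction with smaller differences. Mcm3, at 0.09, -0.15 and 0 in fresh, myoblast and fibroblast medium, was lower in myoblast medium by 0.24 on the log2 scale. Mcm10, which helps to activate the loaded helicase, had a mean difference of -0.21 over 2 probe sets that lay at -0.26 and -0.16. Cdt1, the helicase loading factor, differed by -0.17, Mcm4 by -0.10 and Mcm7 by -0.09. All 8 measured licensing genes were thus below 0 under myoblast medium, against 40.2% of all genes, with a median of -0.22, each on 1 or 2 probe sets.

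Of 7 measured replication fork genes 5 were below 0 under myoblast medium, against 40.2% of all genes, 1 was above and 1 was at 0. Pcna, the sliding clamp that tethers polymerases, stood at 0.11 in fresh medium, -0.17 in myoblast medium and 0 in fibroblast medium, a difference of -0.29. Pola1, the catalytic subunit of the primase-associated polymerase, stood at 0.29, 0 and -0.39. Pole, the leading strand polymerase, stood at 0.29, 0 and 0.00. The fresh medium array was the highest for all 3 of these genes. Rfc3, a subunit of the clamp loader, differed by -0.18 between myoblast and fresh medium, its partner Rfc4 by 0.06 and Gins1, a helicase cofactor, by -0.05.

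All 3 measured nucleotide supply genes were below 0 under myoblast medium, against 40.2% of all genes. Tk1, thymidine kinase, had a mean difference of -0.29, and its 3 probe sets ranged from -0.47 to -0.09. Tyms, thymidylate synthase, stood at 0 in fresh medium, -0.10 in myoblast medium and 0.36 in fibroblast medium. Rrm1, the large subunit of ribonucleotide reductase, stood at 0, -0.04 and 0.18, so the fibroblast array was the highest for both. Slbp, which binds histone mRNA in S phase, had a mean difference of -0.10 between myoblast and fresh medium, and its 3 probe sets lay from -0.31 to 0.00. Ung, which removes uracil from DNA, went the other way, at -0.06 in fresh medium, 0.38 in myoblast medium and 0 in fibroblast medium. Its difference of 0.44 was the largest upward one among the S phase genes. Its promoter window, like those of Mcm2, Mcm5 and Mcm6, holds an E2F match. The cyclin E genes Ccne1 and Ccne2, which bring cells into S phase, were at 0.01 and -0.03.

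**Figure D3:**
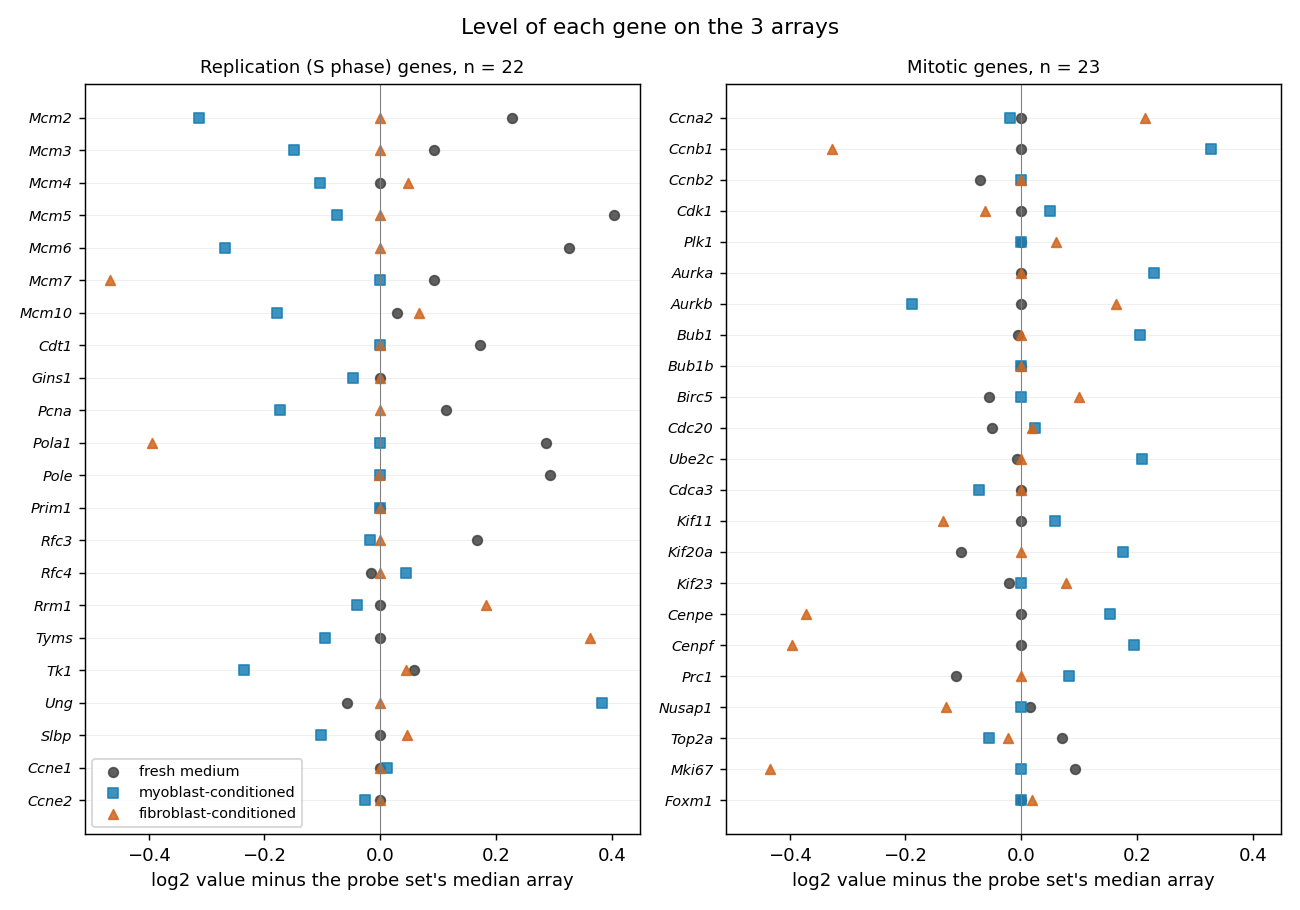
Each row is 1 gene and each symbol 1 array (fresh medium, myoblast-conditioned or fibroblast-conditioned medium), placed by its log2 value minus the median array, with S phase genes on the left and mitotic genes on the right. Myoblast medium is alone lowest for 14 of 22 S phase genes and alone highest for 11 of 23 mitotic genes (19 and 5 with the arrays set level on the added controls), and symbols overlap where arrays tie at 0.

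Fresh medium was alone highest for 11 of 22 S phase genes, against 25.1% of all genes, and for 3 of 23 mitotic genes. Myoblast medium was alone lowest for 14 of 22 S phase genes, against 21.3% of all genes, and for 4 of 23 mitotic genes. It was alone highest for 11 of 23 mitotic genes, against 23.7% of all genes, and for 3 of 22 S phase genes. With the arrays set level on the added controls the mitotic order turns round, with myoblast medium alone lowest for 13 of 23 mitotic genes and alone highest for 5, while it is alone lowest for 19 of 22 S phase genes. The longer lists described further on shared the place of fresh medium but not that of the conditioned media. Fresh medium was alone highest for 18 of 42 other replication genes, against 25.1% of all genes. It was alone lowest for 17 of 52 other mitotic genes, against 23.6% of all genes, and for 8 of 23 mitotic members. Fibroblast medium was alone lowest for 19 of 42 other replication genes, against 34.3% of all genes, and myoblast medium for 11. Fibroblast medium was alone highest for 24 of 52 other mitotic genes, against 30.9% of all genes, and myoblast medium for 12. Each gene's array values share the same 3 RNA samples, so the genes are not replicates of a medium.

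Mitotic genes under myoblast medium had differences between -0.19 and 0.33. Ccnb1, the cyclin B1 gene that activates CDK1 at entry into mitosis, stood at 0 in fresh medium, 0.33 in myoblast medium and -0.33 in fibroblast medium. Its 2 probe sets had the same order, with differences of 0.21 and 0.45 between myoblast and fresh medium. Kif20a, a kinesin of the central spindle, stood at -0.10, 0.18 and 0, a difference of 0.28. Aurka, the kinase of centrosomes and spindle poles, differed by 0.23, Ube2c, the ubiquitin-conjugating enzyme of the anaphase-promoting complex, by 0.22 and Bub1, a checkpoint kinase, by 0.21. Prc1, which bundles midzone microtubules, was at 0.19, and the kinetochore genes Cenpf and Cenpe were at 0.20 and 0.15. Of the 7 measured spindle genes 6 were above 0, against 39.0% of all genes, with a median of 0.15. Aurkb, the kinase of the chromosomal passenger complex, went the other way at -0.19, with Top2a, which untangles chromosomes, at -0.13 and Mki67, the proliferation marker Ki-67, at -0.09. Birc5, the passenger protein survivin, was at 0.06, and Cdk1 at 0.05, Ccna2 at -0.02 and Plk1 and Foxm1 at 0.00. With the arrays set level on the added controls Ccnb1 is at 0.15, Aurka at 0.05, Ube2c at 0.04 and Bub1 at 0.03. Of the spindle genes Kif20a is then at 0.10 and Cenpf and Prc1 at 0.02, while Kif11, Kif23, Cenpe and Nusap1 are below 0.

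Under fibroblast-conditioned medium neither group stood away from 0 as a whole. Medians were -0.01 for the S phase genes, with 11 of 22 below 0 against 43.1% of all genes, and 0.00 for the mitotic genes, with 12 of 23 above 0 against 41.0% of all genes. None of the 45 reached 2-fold, although 4.26% of all genes were 2-fold or more above fresh medium and 2.60% as far below it, and all 45 lay within the middle 90% of all genes, from -0.71 to 0.91. This array and the one of myoblast medium were both set against the same control array.

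Single genes under fibroblast medium were lower by up to 0.68 on the log2 scale. Pola1 was lowest at -0.68, which is the size of the largest difference among the added controls. It was the only member past 1.5-fold in this comparison, where 6.97% of all genes were that far below fresh medium and 9.09% that far above it. Mcm7 stood at 0.09 in fresh medium, 0 in myoblast medium and -0.47 in fibroblast medium, a difference of -0.56. Mki67 stood at 0.09, 0 and -0.43, a difference of -0.53. Mcm5 was at -0.40 and Mcm6 at -0.33, and for both the fibroblast array lay between the others. Cenpf was at -0.40, Cenpe at -0.37 and Ccnb1 at -0.33. For these 3 mitotic genes fibroblast medium was the lowest array and myoblast medium the highest. On the other side Tyms was at 0.36, Ccna2, the cyclin of S phase and early mitosis, at 0.21, Rrm1 at 0.18, and Aurkb and Birc5 at 0.16 each. Kif11, the kinesin that pushes spindle poles apart, was at -0.14 over 2 probe sets that lay at -0.27 and 0.00, and Nusap1 was at -0.14 over probe sets at -0.19 and -0.10. Probe sets of Mcm10, Tk1 and Cdc20 disagreed in sign in this comparison, out of 11 members with more than 1 probe set. In the comparison of myoblast with fresh medium 0 of the 11 did.

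Set directly against each other, the conditioned media differed by at most 1.57-fold in these genes. Ccnb1 was higher in myoblast medium by 0.65 on the log2 scale, with probe sets at 0.41 and 0.90, and Cenpf by 0.59. They were the 2 members past 1.5-fold, out of 45, where 6.65% of all genes were that far above and 8.34% that far below. Cenpe was higher by 0.52, Mcm7 by 0.47, Mki67 by 0.43, Pola1 by 0.39 and Ung by 0.38. Tyms was lower in myoblast medium by 0.46, Aurkb by 0.35, Mcm2 by 0.31 and Tk1 by 0.28. No member reached 2-fold, against 2.12% of all genes that far above and 3.94% that far below. The S phase median was -0.06, with 14 of 22 below 0 against 39.3% of all genes, and the mitotic median 0.08, with 13 of 23 above 0 against 44.9% of all genes. With the arrays set level on the added controls these medians become -0.24 and -0.10. In that setting Ccnb1 (0.48) and Cenpf (0.41) fall short of 1.5-fold, and Tyms (-0.64) passes it in the other direction.

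Further replication and mitotic genes, from longer lists, were mostly within 2-fold as well. Of 42 measured replication genes, 24 were below 0 and 11 above under myoblast medium, against 40.2% and 39.0% of all genes, with a median of -0.04. Under fibroblast medium 27 were below and 9 above, against 43.1% and 41.0% of all genes, with a median of -0.04. Usp1, a deubiquitinase of PCNA, was the exception. It stood at -0.46 in fresh medium, 0.59 in myoblast medium and 0 in fibroblast medium, a difference of 1.06 (2.08-fold) between myoblast and fresh medium that its 2 probe sets shared, at 1.04 and 1.07. It is at 0.88, short of 2-fold, with the arrays set level on the added controls. Among origin recognition genes Orc1 was at -0.37 under myoblast and 0.59 under fibroblast medium, Orc2 at 0.60 and -0.19, and Orc5 at -0.04 and -0.84. Between the conditioned media Orc1 was at -0.96, and Orc2 and Orc5 were at 0.79 each. With the arrays set level on the added controls Orc1 is at -1.14 there, past 2-fold. Wdhd1, a replisome scaffold, was lower by 0.52 on the log2 scale under myoblast medium and by 0.47 under fibroblast medium, and Dnmt1, the maintenance DNA methyltransferase, by 0.41 and 0.62. Of 52 other mitotic genes none reached 2-fold in any comparison as a mean over its probe sets. Their medians were 0.00 under myoblast and 0.02 under fibroblast medium. The extremes under fibroblast medium were Ttk, a checkpoint kinase, at 0.62 and Stmn1, a microtubule destabiliser, at -0.46. Under myoblast medium they were Hmmr at 0.50 and Melk at -0.50. Between the conditioned media the probe sets of Ttk lay at -1.23 and -0.06 and those of Hmmr at 0.41 and 1.07.

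Regulators that act before S phase included genes past 2-fold. Ccnd1 and Ccnd2, the D cyclins that start the passage through G1, were higher under fibroblast medium. Ccnd1 stood at -0.16 in fresh medium, 0 in myoblast medium and 1.57 in fibroblast medium, 3.32-fold above fresh medium, with 3 probe sets from 1.38 to 1.97. Ccnd2 stood at -0.79, 0 and 0.95, 3.34-fold above fresh medium, and Ccnd3 differed by only 0.07. The lowest of this list under fibroblast medium were Tfdp2 at -0.69, with 3 probe sets from -0.79 to -0.53, and Cdk2 at -0.62. The 2 probe sets of Cdk2 lay at -0.67 and -0.57. Myc, which drives growth and cell cycle entry, stood at -1.20, 0.60 and 0, so it was higher than in fresh medium by 3.49-fold under myoblast and 2.29-fold under fibroblast medium. Members of the E2F family differed in sign under myoblast medium. The activator E2f1 was at -0.42, the repressors E2f7 and E2f8 at -0.87 and -0.39, E2f6 at -0.05, E2f4 at 0.00 and E2f5 at 0.41. E2f2 was blank on all arrays and so read as 0. Mycn was at -0.75. Rb1 was at 0.00 and -0.01. In all, 1 of 22 genes of G1 and the E2F family was at least 2-fold higher under myoblast medium, against 1.35% of all genes, and 3 of 22 under fibroblast medium, against 4.26%, with 0 lower in either.

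**Figure D4:**
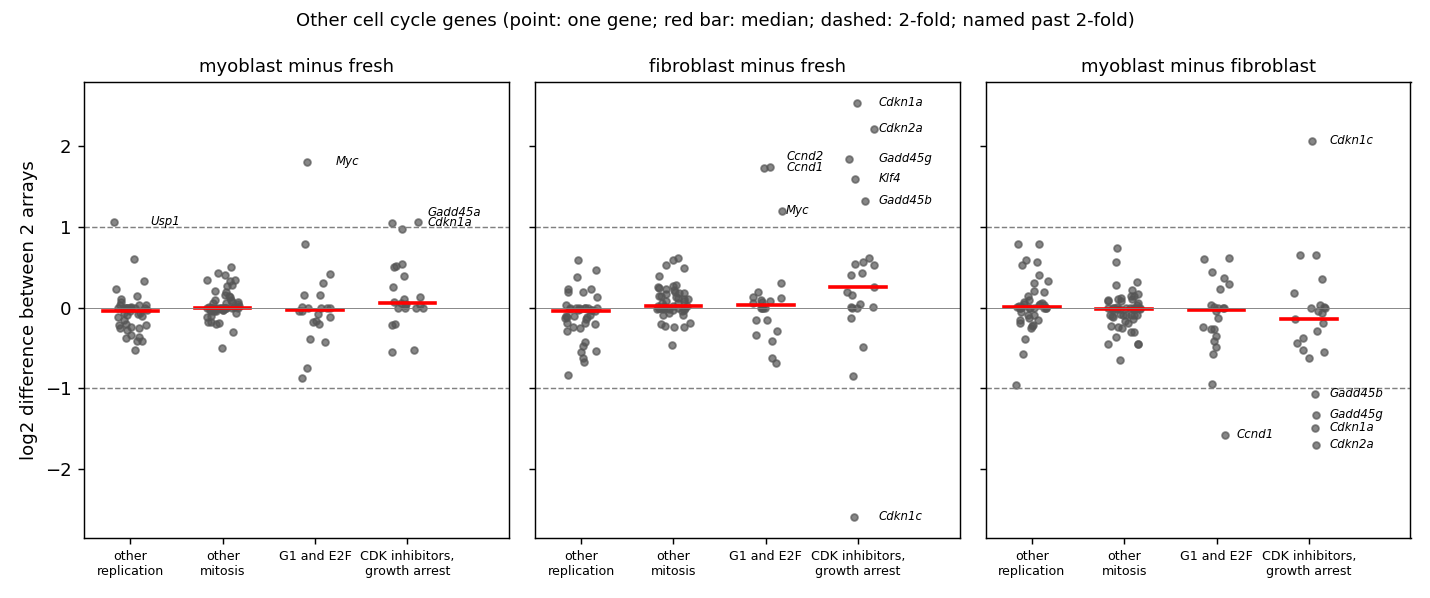
Each point is the log2 difference of 1 gene between a pair of arrays (vertical axis) in 4 further lists of cell cycle genes, with medians as red bars, dashed lines at 2-fold and names beside genes past it. Cdkn1a (2.53) and Cdkn1c (-2.59) span the widest range under fibroblast medium. Among the other replication and mitotic genes only Usp1 passes 2-fold, at 1.06 under myoblast medium.

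Inhibitors of the cell cycle differed in both directions. Cdkn1a, which encodes the kinase inhibitor p21 and is a target of p53, stood at -1.04 in fresh medium, 0 in myoblast medium and 1.49 in fibroblast medium. It was 2.06-fold higher under myoblast medium and 5.78-fold higher under fibroblast medium than in fresh medium, with 2 probe sets at 1.39 and 3.67 in the latter comparison. Cdkn2a, the locus of p16 and ARF, stood at -0.51, 0 and 1.70, 4.62-fold higher under fibroblast medium. Cdkn1c, the imprinted gene of p57, had the opposite order, at 0.53, 0 and -2.07, and was 6.02-fold lower under fibroblast medium. Cdkn1b, the gene of p27, differed by 0.56 under fibroblast medium, with 2 probe sets that lay at 0.01 and 1.12. The whole list, with other genes linked to growth arrest, lay mostly above fresh medium, with exceptions. Of its 23 measured genes 17 were above 0 and 5 below under fibroblast medium, against 41.0% and 43.1% of all genes. Under myoblast medium 15 were above 0 and 4 below, against 39.0% and 40.2% of all genes. Under fibroblast medium Gadd45g was at 1.84, Klf4 at 1.59, Gadd45b at 1.32, Gadd45a at 0.41, Tob1 at 0.04, Btg1 at 0.00 and Ccng2 at -0.49. Gas1 was blank on all arrays and so read as 0. Under myoblast medium Gadd45a was at 1.05, Klf4 at 0.97 and Ccng2 at -0.55. Of 23 measured genes of this list, 5 were 2-fold or more above fresh medium and 1 as far below it under fibroblast medium, against 4.26% and 2.60% of all genes, with a median of 0.25. Under myoblast medium 2 were higher and 0 lower, against 1.35% and 0.844% of all genes, with a median of 0.06. With the arrays set level on the added controls Cdkn1a is at 0.86 and Gadd45a at 0.87 under myoblast medium, short of 2-fold. Fresh medium was the lowest array for Cdkn1a, Cdkn2a, Klf4, Gadd45a, Gadd45b and Gadd45g.

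Markers of other cell types differed between the same arrays. Of 14 macrophage markers 10 were at least 2-fold higher under fibroblast medium and 0 lower, against 4.26% and 2.60% of all genes. Their median level was 0.00 in fresh medium (range -1.13 to 0.10), -0.40 in myoblast medium (-0.94 to 0.08) and 1.52 in fibroblast medium (0.00 to 5.41). Under myoblast medium 4 of 11 endothelial markers were 2-fold or more below fresh medium, against 0.844% of all genes, and under fibroblast medium 8, against 2.60%, with median levels of 0.84 in fresh medium (range -0.28 to 1.38), 0.00 in myoblast medium (-0.28 to 0.05) and -1.50 in fibroblast medium (-4.28 to 0.58). Of 17 cardiomyocyte markers 1 was at least 2-fold lower and 1 higher under myoblast medium, and 5 were lower and 0 higher under fibroblast medium, beside the same shares of all genes. Their median difference from fresh medium was -0.19 under myoblast and -0.58 under fibroblast medium. Of 12 fibroblast markers 2 were at least 2-fold lower in each comparison with fresh medium and 1 was higher under fibroblast medium, with median differences of -0.12 and 0.09. How much these cells contribute to the replication, mitotic and inhibitor genes was not tested.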

How the data were processed

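Total RNA of 3 cultures was labelled by the Affymetrix 3' IVT Express procedure, per the labels' protocols. The submitters' processing notes name RMA, without software or settings. The log2 values deposited by the authors (a base inferred from RMA) were centred on the median of the 3 arrays for each probe set: 0 probe sets held 3 values, and those with 2 always held 1 positive and 1 negative. With blanks read as 0, every array had a median of 0.

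The dated platform annotation gave 1 gene for 20832 probe sets, several for 436 and none here for 9831. Entrez IDs matched 20764 of the former to current RefSeq symbols (GRCr8). Probe sets with 1 symbol were averaged per gene. Differences were counted at 2-fold, with 1.5-fold and 3-fold as alternatives, beside the same counts over 14218 genes. Genes at exactly 0 count as neither above nor below 0. They were 2953 of all genes for myoblast against fresh medium, 2261 for fibroblast against fresh medium and 2245 between the conditioned media. All members could be named. From the other cell cycle lists up to 4 genes with the largest differences per direction and comparison could be named. The main cyclins and inhibitors, E2f1, Myc and Rb1 were added to these. E2f2, E2f4, E2f6, Tob1, Btg1 and Gas1 were named beyond this rule. The members and lists were chosen with earlier results of these data known. The number of arrays limits the precision, and no test was run. The strand of the promoter windows was checked, and the counting was tested on simulated data. Alternatives were the median or the widest-ranging probe set, leaving out probe sets not unique to 1 transcript, leaving out those with under 2 values, and other centrings. Probe sets not unique to 1 transcript were those with names ending in _s_at, _x_at or _a_at. Python 3.11.15, NumPy 2.4.6, pandas 2.3.3 and Matplotlib 3.10.9 were used.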

Additional observations from a re-analysis of the deposited data

How the results depend on the processing

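No member reached 2-fold under any summary of probe sets or centring tried. With the main summary and centring, 1 S phase gene was at least 1.5-fold lower under myoblast medium and 1 under fibroblast medium. Past the same threshold, 2 mitotic genes were higher in myoblast than in fibroblast medium. At 3-fold none passed. The S phase median under myoblast medium stayed below 0 under all 7 alternatives, from -0.32 to -0.10. The last 2 of these, centring on the added controls and leaving out genes at 0 on all arrays, were chosen after seeing the data. Centring on the added controls gave an S phase median of -0.32 with 1 gene above 0 and a mitotic median of -0.12 with 7 above and 16 below 0 under myoblast medium. Between the conditioned media it left 3 S phase genes above 0, and 8 mitotic genes above and 15 below. It also moved the order of the arrays: fresh medium was alone lowest for 1 and myoblast medium alone highest for 1 of 22 S phase genes, and of 23 mitotic genes fresh medium was alone highest for 6 and alone lowest for 4, myoblast medium alone highest for 5 and alone lowest for 13, and fibroblast medium alone highest for 10. That setting shifts all genes alike, by -0.18 in both comparisons with the myoblast array. Centring on the median of nonzero values put 12 S phase genes above 0 under fibroblast medium, and made fresh medium alone lowest for 4 and fibroblast medium alone highest for 10 S phase and 10 mitotic genes. Leaving out probe sets with under 2 values, 5 of 16 mitotic genes were below 0 between the conditioned media, and the S phase median under myoblast medium was -0.24 over 17 genes. Medians near 0 therefore have no settled sign. No paired analysis was possible because each condition has 1 array. Centring hides signal over background, so dim genes could not be told from bright ones.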
